A study of Mus musculus with 6 samples.

Results

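Ras proteins are membrane-bound switches that carry signals from growth factor receptors when loaded with GTP. GTP-bound Ras recruits Raf kinases, which start the MEK and ERK kinase cascade, and GTPase-activating proteins such as neurofibromin switch Ras off. ERK activity in turn raises the transcription of its own brakes, among them dual-specificity phosphatases and Spred and Sprouty proteins, and oncogenic Ras is a common partner of MLL fusions in acute myeloid leukaemia.

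The 8 genes described here are the Ras genes Nras and Hras, the GTPase-activating protein genes Nf1 and Rasa1, the Raf kinase gene Braf, and the pathway brakes Dusp6, Spred1 and Spred2. They were chosen by gene name, each matched 1 of the 53465 rows of the expression table, and all 8 passed the filter on low values that left 11020 genes for testing. Messenger RNA of a mouse leukaemia line was sequenced after 6 days of culture with 100 µM OMP (4'-O-methylpyridoxine, a vitamin B6 analog) or with the same volume of PBS as Vehicle, with 3 libraries per group. Both groups are the line named Nras(G12D)/MLL-AF9, so both carry the mutant Nras and the MLL-AF9 fusion, and both grew in serum-containing medium with SCF, IL-3 and IL-6, cytokines whose receptors themselves signal through Ras. The labels do not say how the mutant Nras was introduced, whether the line is 1 clone, or whether the libraries came from separate cultures, so each p-value is set against a library-to-library spread that could be purely technical.

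Nras and Hras are close relatives, which bears on how their reads can be told apart. The coding sequences of both genes in the GRCm38 reference are 567 bases long and identical at 427 of them, or 75.3%. The longest run of bases shared by their main transcripts was 23 bases, so few reads could come equally from either gene. The values are gene totals, and mutant and wild-type Nras reads are not separated in them.

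Library totals recovered from the deposited values ran from 3494986 to 3720117 reads in OMP and from 3737843 to 4247619 in Vehicle. Of 9 myeloid markers of the line, 9 were expressed in both groups, while most B cell, T cell, erythroid and stromal markers were at or near 0. The exceptions were Lck, a T cell kinase, at 3.15 ± 0.653 RPKM in OMP and 3.14 ± 0.201 RPKM in Vehicle, and Pdgfrb, a stromal receptor, at 2.69 ± 0.164 RPKM in OMP and 3.02 ± 0.160 RPKM in Vehicle (SD, n = 3 each), neither of them called. The summed RPKM (reads per kilobase, scaled to library size) was at most 0.587 in OMP and 0.551 in Vehicle for B cells, 4.04 and 3.34 for T cells, 0.561 and 0.959 for erythroid cells, and 2.90 and 3.24 for stroma. Pax5, Cd3e, Hbb-bs and Dcn were at 0 in every library. The myeloid markers did not stay level: their sum was 791.2 to 819.8 RPKM in OMP and 1378 to 1436 RPKM in Vehicle, with 3 markers higher and 4 lower. These make 77.8% called, beside 43.0% over all genes tested (15.4% higher and 27.5% lower), and no difference from other genes was tested. Elane, an azurophil granule protease, averaged 369.7 ± 21.04 RPKM in OMP and 992.6 ± 23.2 RPKM in Vehicle (SD, n = 3 each), and Kit, the SCF receptor, 8.88 ± 1.15 RPKM in OMP and 19.8 ± 1.20 RPKM in Vehicle (SD, n = 3 each). Mpo fell too, at 2.63 ± 0.563 RPKM in OMP and 12.3 ± 0.648 RPKM in Vehicle, as did Cebpa, at 27.0 ± 0.940 and 44.4 ± 1.70 RPKM (SD, n = 3 each). The markers that rose were Ptprc, at 139.4 ± 4.52 RPKM in OMP and 107.4 ± 3.17 RPKM in Vehicle, Itgam, at 51.1 ± 1.95 RPKM in OMP and 38.3 ± 0.0985 RPKM in Vehicle, and Spi1, at 128.4 ± 2.24 RPKM in OMP and 113.4 ± 0.528 RPKM in Vehicle (SD, n = 3 each). The mean of Elane fell by slightly more than the sum did, so the lower sum rests on Elane. These marker genes were named after their values were seen. The part of this shift in the changes below was not tested, and in bulk RNA fewer cells of a kind and less RNA per cell cannot be told apart.

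Dusp6 and Spred1, 2 of the 3 brakes, fell with OMP, and the Ras genes themselves did not pass the test. Dusp6, a cytoplasmic phosphatase that inactivates ERK, was 1.36-fold lower, and Spred1, a membrane adaptor that brings neurofibromin to Ras, was 1.24-fold lower. Of the 8 genes, 0 rose and 2 fell at an adjusted p under 0.05 in limma, a linear model across all genes tested. Over all genes tested, 43.0% were called, 15.4% higher and 27.5% lower, so 2 called genes of 8 is no more than the background. The median log2 fold change of the 8 genes was -0.11, against -0.09 over all genes tested. The groups did not overlap in 5 of the 8 genes, 1 higher and 4 lower with OMP, against a background of 54.5%, made up of 19.9% higher and 34.6% lower.

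**Figure D1:**
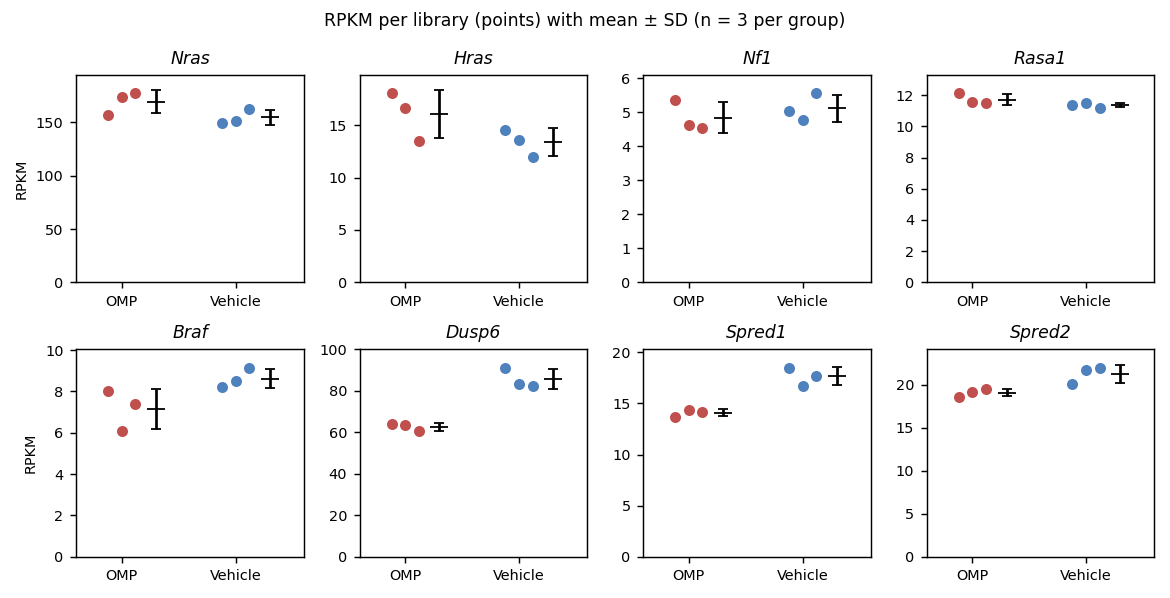
RPKM of each of the 8 genes in every library (points, OMP left and Vehicle right), with mean ± SD of the 3 libraries of a group. The axis of each panel starts at 0 and has its own range. Dusp6 lies between 60.4 and 64.0 RPKM in OMP, below all Vehicle libraries, while the points of Nras, Hras and Nf1 overlap between the groups.

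Nras (GRCm38 chr3:103058285-103067914, plus strand) was the most abundant of the 8 transcripts per unit length. It had 157.1, 174.0 and 177.0 RPKM in OMP, against 149.5, 151.2 and 162.7 RPKM in Vehicle. The highest Vehicle library lay above the lowest OMP library, so the groups overlapped. The log2 fold change of 0.13 ± 0.05 (SE) did not pass the test (limma adjusted p = 0.0857, 95% interval 0.01 to 0.26). The call depended on the setting, and Nras passed in 4 of 16 alternatives. Among these were median-of-ratios scaling (log2 fold change 0.22, limma adjusted p = 0.00979), voom on recovered reads (0.0044) and leaving out OMP replicate 1 (0.0213). Nras did not pass with TPM rescaling (0.05, limma adjusted p = 0.504) or with quantile normalization (0.075, limma adjusted p = 0.297).

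Hras (chr7:141189105-141194005, minus strand), the other Ras gene of the group, was expressed at about the middle of all genes tested. It had 18.01, 16.6 and 13.5 RPKM in OMP, against 14.6, 13.6 and 11.99 RPKM in Vehicle. OMP replicate 3 fell inside the Vehicle range, and each group spread over several RPKM. The log2 fold change was 0.25 ± 0.12 (SE), with a 95% interval from -0.02 to 0.51 (limma adjusted p = 0.117). Without OMP replicate 3 it was 0.36 and passed (limma adjusted p = 0.0254), and it also passed with quantile normalization (0.0432) and with voom (0.041). In all, Hras passed in 4 of 16 alternatives. Hras did not pass with median-of-ratios scaling (limma adjusted p = 0.0514) or TPM rescaling (0.26). Only 487 Hras reads in OMP and 455 in Vehicle lie behind these values.

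Set against each other within a library, the Ras genes Nras and Hras did not separate the groups. The log2 ratio of Nras to Hras was 3.12, 3.39 and 3.71 in OMP, against 3.36, 3.48 and 3.76 in Vehicle. The libraries of both groups were interleaved, and the difference of -0.13 was smaller than the spread between libraries (exact permutation p = 0.5, two-sided, adjusted p = 0.6 over 6 ratios and shares tested). With 3 libraries against 3 this test cannot go below 0.1, so no ratio could pass.

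Among 10 tested genes of the Ras family of GTPases, Nras and Hras included, 0 rose and 2 fell, with a list median of 0.02. These 2 of 10 called are fewer than the 43.0% over all genes tested (15.4% higher and 27.5% lower). No difference from other genes was tested. The falls were Rheb, the GTPase that activates mTORC1, at 58.6 ± 7.60 RPKM in OMP and 76.0 ± 4.37 RPKM in Vehicle, and Rras, a Ras-related GTPase, at 1.77 ± 0.366 and 3.55 ± 0.658 RPKM (SD, n = 3 each). Rheb was 1.30-fold lower (limma adjusted p = 0.00934). Rras rested on 19 reads in OMP and 43 in Vehicle. The count of rises was 2 with median-of-ratios scaling, 1 with quantile normalization and 3 with voom.

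The GTPase-activating proteins Nf1 and Rasa1 differed little between the groups. Nf1 (chr11:79339693-79581612, plus strand), which encodes neurofibromin, had 5.35, 4.63 and 4.53 RPKM in OMP, against 5.03, 4.78 and 5.55 RPKM in Vehicle. The libraries of both groups were interleaved, and the log2 fold change of -0.07 had an interval from -0.34 to 0.19 (limma adjusted p = 0.639). Nf1 had the lowest level of the 8 genes, on 620 reads in OMP and 738 in Vehicle. A change of any size inside that interval is not excluded. Rasa1 (chr13:85214780-85289130, minus strand), which encodes p120 RasGAP, had 12.1, 11.5 and 11.5 RPKM in OMP, against 11.4, 11.5 and 11.2 RPKM in Vehicle. Every OMP library was above every Vehicle library, but the closest libraries nearly coincided, and the log2 fold change of 0.04 had an interval from -0.11 to 0.20 (limma adjusted p = 0.638). Its sign turned with TPM rescaling (-0.04), and that of Nf1 with median-of-ratios scaling (0.01) and quantile normalization (0.06). The log2 ratio of Nf1 to Rasa1 was -1.28 ± 0.089 in OMP and -1.15 ± 0.127 in Vehicle (SD, n = 3 each; exact permutation p = 0.3, adjusted p = 0.45).

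Other Ras GTPase-activating protein genes did change, in both directions. Of 9 tested genes of this list, Nf1 and Rasa1 included, 2 rose and 2 fell, with a list median of 0.04. Its 44.4% called is near the 43.0% over all genes tested. Rasa3, which acts on both Ras and Rap1, had 26.3, 26.7 and 25.6 RPKM in OMP, against 48.2, 48.5 and 45.9 RPKM in Vehicle. The groups lay far apart, and Rasa3 was 1.80-fold lower (limma adjusted p = 6.69e-06). Rasa2, a relative of Rasa3, was 1.64-fold higher, at 24.0 ± 1.36 RPKM in OMP and 14.4 ± 0.455 RPKM in Vehicle (SD, n = 3 each). Rasal3, a GTPase-activating protein gene of blood cells, rose 1.35-fold and Dab2ip was 1.37-fold lower.

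Braf (chr6:39603237-39725463, minus strand), the Raf kinase most often mutated in human cancers, lay lower with OMP in every library without passing the test. It had 8.0, 6.11 and 7.41 RPKM in OMP, against 8.22, 8.49 and 9.15 RPKM in Vehicle. The groups did not overlap, OMP replicate 2 was the lowest, and OMP replicate 1 came close to the nearest Vehicle library. The log2 fold change was -0.26 ± 0.11 (SE), with an interval from -0.51 to 0.00 (limma adjusted p = 0.0975). It passed with TPM rescaling (log2 fold change -0.34, limma adjusted p = 0.0427) and with voom on recovered reads (0.00433), and was weakest with quantile normalization (-0.13, limma adjusted p = 0.372).

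Araf, the X-linked Raf gene, was called higher with OMP. It had 39.7, 44.2 and 41.0 RPKM in OMP, against 29.4, 28.3 and 32.3 RPKM in Vehicle, and rose 1.38-fold (limma adjusted p = 0.00077). All OMP libraries lay above all Vehicle libraries.

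Downstream of Raf, a MEK gene rose and an ERK gene fell. Mapk3, which encodes ERK1, was 1.24-fold lower, with 87.5 ± 2.49 RPKM in OMP and 108.9 ± 4.65 RPKM in Vehicle (SD, n = 3 each; limma adjusted p = 0.000786). Map2k2, which encodes MEK2, rose 1.16-fold (limma adjusted p = 0.0318), and Map2k1, which encodes MEK1, had a log2 difference of -0.04 (limma adjusted p = 0.615), positive with median-of-ratios scaling (0.05). The Map2k2 call was lost with TPM rescaling (0.143), with no filter (0.0714) and without any of OMP replicate 2, OMP replicate 3, Vehicle replicate 1 or Vehicle replicate 2 (0.0508 to 0.101). In all, 2 of 11 tested genes of the cascade and its scaffolds rose and 2 fell, with a list median of -0.08. This 36.4% called is no more than the 43.0% over all genes tested.

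Dusp6 (chr10:99263231-99267489, plus strand) had the largest absolute log2 fold change of the 8 genes. It had 64.0, 63.3 and 60.4 RPKM in OMP, against 91.0, 83.0 and 82.4 RPKM in Vehicle. All OMP libraries lay below all Vehicle libraries, with a gap several times the range within OMP. The log2 fold change was -0.45 ± 0.05 (SE), with an interval from -0.56 to -0.33 (limma adjusted p = 0.000249), and behind it stood 1882 reads in OMP and 2879 in Vehicle. It passed under all 16 alternative settings, with log2 fold changes from -0.53 to -0.36. Set against Nras within each library, the log2 ratio of Dusp6 to Nras was -1.44 ± 0.129 in OMP and -0.85 ± 0.133 in Vehicle (SD, n = 3 each), without overlap (exact permutation p = 0.1, adjusted p = 0.2). That ratio does not depend on how libraries are scaled.

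Spred1 (chr2:117121374-117182279, plus strand) had 13.7, 14.4 and 14.2 RPKM in OMP, against 18.5, 16.7 and 17.7 RPKM in Vehicle. The groups did not overlap, and the OMP libraries lay within 1 RPKM of each other. The log2 fold change was -0.31 ± 0.07 (SE), with an interval from -0.46 to -0.16 (limma adjusted p = 0.00526), and it passed under all 16 alternative settings, with log2 fold changes from -0.40 to -0.21.

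Spred2 (chr11:19924375-20024026, plus strand), a relative of Spred1 that also restrains Raf activation, had 18.6, 19.2 and 19.5 RPKM in OMP, against 20.02, 21.7 and 21.96 RPKM in Vehicle. The groups did not overlap, but the log2 fold change of -0.15 ± 0.06 (SE) did not pass the test (limma adjusted p = 0.0796, interval -0.29 to -0.01). It passed in 1 of 16 alternatives, TPM rescaling (0.0157). The log2 ratio of Spred1 to Spred2 was -0.44, -0.42 and -0.45 in OMP, against -0.11, -0.37 and -0.31 in Vehicle. The ratio was lower in all OMP libraries (exact permutation p = 0.1, adjusted p = 0.2), which does not show that the relatives responded differently.

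**Figure D2:**
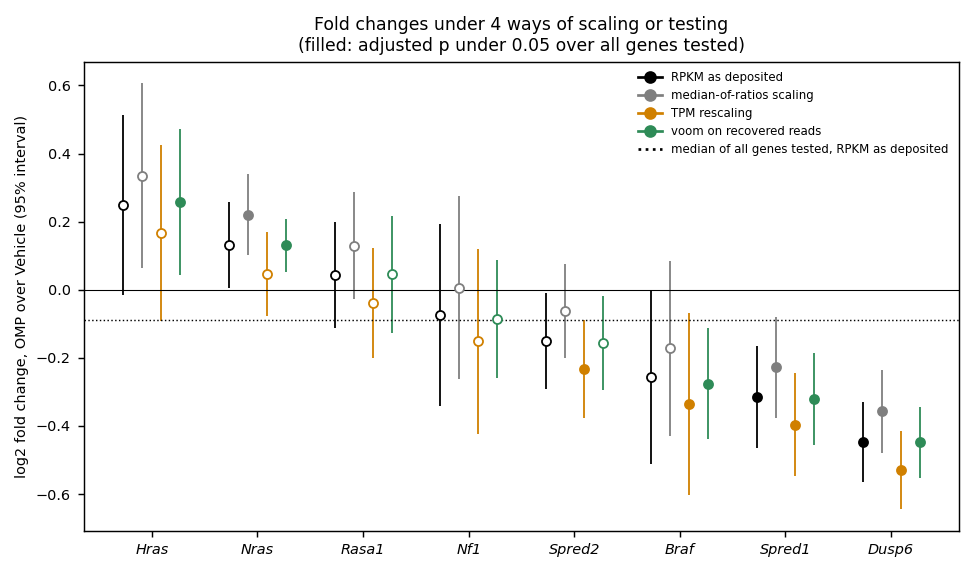
Log2 fold change of OMP over Vehicle for the 8 genes with 95% intervals, for RPKM as deposited and for 3 alternatives, with filled points where the adjusted p was under 0.05. Dusp6 and Spred1 are filled in all 4, at -0.45 and -0.31 for RPKM as deposited, and the open black points of the other 6 genes run from -0.26 to 0.25.

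The promoters of these brakes are shown because Dusp6, Spred1 and Spred2 are known to be raised by ERK signalling. Each line gives the 250 bases before the RefSeq start on GRCm38.p6. Capitals mark CGGAAG (a form of the site bound by ETS factors), GGGCGG (an SP1 motif) and CCAAT on either strand. Other and shorter forms of the ETS site were not marked.
Dusp6, chr10:99262981-99263230, plus strand: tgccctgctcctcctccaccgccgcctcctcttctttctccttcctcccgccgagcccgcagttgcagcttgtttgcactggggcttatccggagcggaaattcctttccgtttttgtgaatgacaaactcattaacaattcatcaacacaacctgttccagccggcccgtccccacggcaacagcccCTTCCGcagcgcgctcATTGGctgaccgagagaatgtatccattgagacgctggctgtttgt
Spred1, chr2:117120821-117121070, plus strand: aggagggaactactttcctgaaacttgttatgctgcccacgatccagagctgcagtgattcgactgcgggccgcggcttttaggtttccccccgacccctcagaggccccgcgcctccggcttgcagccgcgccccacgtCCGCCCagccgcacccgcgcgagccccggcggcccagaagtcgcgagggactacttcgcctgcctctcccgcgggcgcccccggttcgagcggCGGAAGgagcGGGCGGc
Spred2, chr11:19924192-19924441, plus strand: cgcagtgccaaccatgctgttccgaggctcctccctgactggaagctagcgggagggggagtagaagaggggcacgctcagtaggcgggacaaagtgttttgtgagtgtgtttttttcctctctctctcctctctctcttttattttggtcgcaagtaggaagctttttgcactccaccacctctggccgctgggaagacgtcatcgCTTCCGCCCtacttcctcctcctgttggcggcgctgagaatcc
In Spred2 CGGAAG and the SP1 motif overlap. CGGAAG was found once in each of Dusp6, Spred1, Spred2, Nf1 and Rasa1, in 5 of the 8 genes, and in 13.6% of 32851 promoters of that length. The longer CCGGAAGT, which contains it, was found only in Nf1 (2.88% of promoters). TGACGTCA, bound by CREB, was found 2 times in Braf (1.55% of promoters), and CACGTG, an E-box, 1 time in Nras (6.02%). GGGCGG was found in 6 of the 8 genes (32.7% of promoters) and CCAAT in Dusp6 and Hras (33.8%). TGACTCA, bound by AP-1 (4.46%), and 1 exact form of the SRF site (0.0609%), searched on both strands like the rest, were found in 0 of the 8. Variant forms of the SRF site were not searched. The form searched was in only 20 of 32851 promoters, so its absence cannot show whether the 8 genes lack SRF sites. A match describes the letters only.

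The wider set of ERK pathway inhibitors changed in both directions. Of 12 tested genes, Dusp6, Spred1 and Spred2 included, 3 rose and 4 fell, with a list median of -0.19. The 58.3% called stand beside 43.0% over all genes tested (15.4% higher and 27.5% lower). No difference from other genes was tested. Dusp7, like Dusp6 a cytoplasmic ERK phosphatase, was 1.91-fold lower, at 12.9, 10.1 and 10.1 RPKM in OMP, against 21.98, 20.996 and 21.1 RPKM in Vehicle (limma adjusted p = 0.000162). Erf, an ETS repressor that ERK inactivates, was 1.92-fold lower on 69 reads in OMP and 168 in Vehicle.

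The genes of this list that rose were nuclear phosphatases. Dusp1, which also acts on p38 and JNK, rose 1.67-fold to 5.27 ± 1.18 RPKM in OMP, against 2.93 ± 0.390 RPKM in Vehicle (SD, n = 3 each). Dusp5, a nuclear ERK phosphatase, rose by 0.32 on the log2 scale (limma adjusted p = 0.0175), a call lost without OMP replicate 2 or 3 or Vehicle replicate 2 or 3 (0.0518 to 0.0603). Dusp2, named after its values were seen, rose 1.44-fold, at 18.6 ± 2.42 RPKM in OMP and 12.8 ± 1.98 RPKM in Vehicle (SD, n = 3 each; limma adjusted p = 0.0101). Dusp4, also nuclear, had a log2 difference of -0.39 ± 0.22 (SE; limma adjusted p = 0.179), and Spry2, a Sprouty adaptor, one of -0.04 (limma adjusted p = 0.732). Spry1 and Spry4 were under the filter, at 0.736 ± 0.356 and 0.387 ± 0.104 RPKM in OMP and 1.01 ± 0.0789 and 0.361 ± 0.0116 RPKM in Vehicle (SD, n = 3 each).

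Among genes known as transcriptional output of ERK, Egr1, Etv4 and Etv5 fell beside Dusp6 and Spred1. Of 15 tested genes, a list that again holds Dusp6, Spred1 and Spred2, 1 rose and 6 fell, with a list median of -0.15. The other 8 were not called. That is 46.7% called, near the 43.0% over all genes tested, where falls also outnumbered rises (15.4% higher and 27.5% lower). No difference from other genes was tested. Egr1, an immediate-early zinc finger factor, had 13.2, 13.8 and 13.3 RPKM in OMP, against 26.3, 29.4 and 24.6 RPKM in Vehicle, and was 1.95-fold lower (limma adjusted p = 3.45e-05). The ETS factors Etv4 and Etv5 were 1.44-fold and 1.32-fold lower, Etv4 at 32.8 ± 0.287 RPKM in OMP and 47.3 ± 1.29 RPKM in Vehicle (SD, n = 3 each; limma adjusted p = 5.94e-05). Dusp5 was the gene that rose, and Ccnd1, cyclin D1, had a log2 fold change of -0.01 with an interval from -0.16 to 0.15 (limma adjusted p = 0.933). ERK phosphorylation was not measured in these data.

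Upstream, among genes that load Ras with GTP or link it to receptors, Rasgrp4 rose and Rasgrp2, Crkl and Grb2 fell. Of 16 tested activators and adaptors, 1 rose and 7 fell, with a list median of -0.21. That is 8 of 16 called, beside 43.0% over all genes tested (15.4% higher and 27.5% lower), and no difference from other genes was tested. Rasgrp4, a myeloid Ras exchange factor, had 9.16, 9.44 and 9.60 RPKM in OMP, against 4.23, 3.81 and 4.48 RPKM in Vehicle, and rose 2.12-fold (limma adjusted p = 7.19e-05). Rasgrp2, a relative that acts mainly on Rap1, fell by 0.58 on the log2 scale, with 55.4 ± 3.66 RPKM in OMP and 83.1 ± 3.93 RPKM in Vehicle (SD, n = 3 each). The adaptors Crkl and Grb2 were 1.38-fold and 1.20-fold lower, and Crk, Gab2 and the exchange factor Sos2, named after their values were seen, fell too. Ptpn11, which encodes the phosphatase SHP2, was 1.15-fold lower (limma adjusted p = 0.0112), a call lost with median-of-ratios scaling (0.0932). Sos1, the exchange factor that Grb2 brings to the membrane, had a log2 difference of 0.15 ± 0.08 (SE; limma adjusted p = 0.163) and passed with median-of-ratios scaling (0.0407) and quantile normalization (0.0288).

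**Figure D3:**
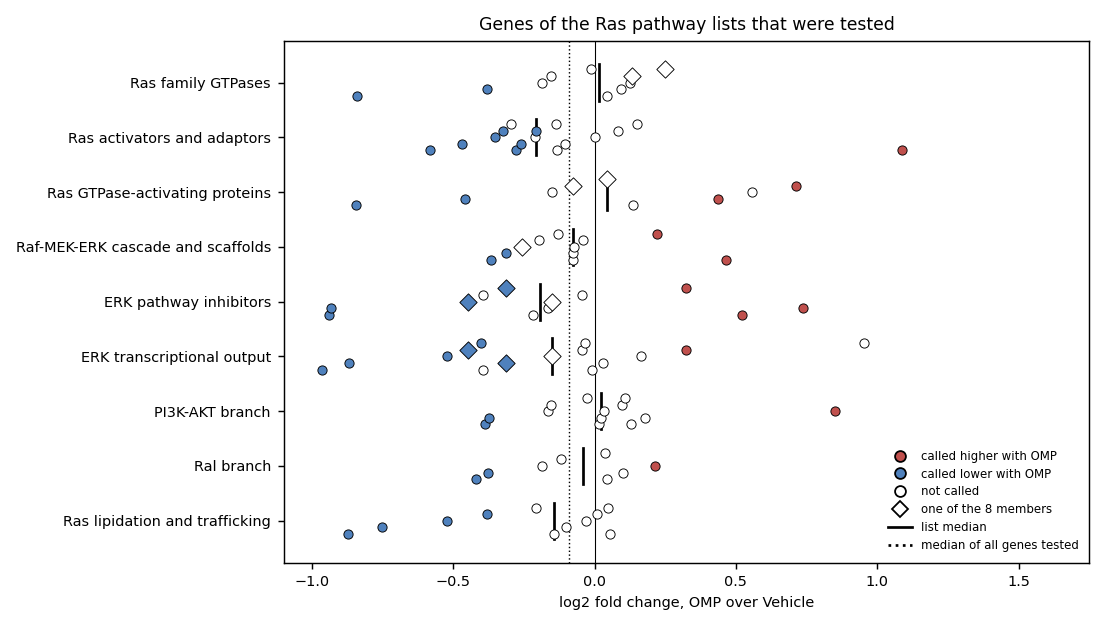
Log2 fold change of OMP over Vehicle for every tested gene of the 9 pathway lists, with red for called higher, blue for called lower, white for not called, and diamonds for the 8 genes described here. Black bars are list medians, from -0.21 for the activators and adaptors to 0.04 for the GTPase-activating proteins, and the dotted line is the median of all genes tested at -0.09.

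Over all these lists, with the 8 genes left out, 10 of 89 tested genes rose and 27 fell, 41.6% in all, beside 43.0% over all genes tested. The balance of rises and falls depended on scaling. Over all genes tested, 1702 were higher and 3033 lower for RPKM as deposited, 2366 (21.5%) and 2237 (20.3%) with median-of-ratios scaling, 1942 (17.6%) and 3394 (30.8%) with voom, 1221 (11.1%) and 3982 (36.1%) after rescaling to TPM, and 2244 (20.4%) and 2321 (21.1%) with quantile normalization.

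The order of the 8 genes by level was nearly the same in both groups. In OMP it ran from Nras over Dusp6, Spred2, Hras, Spred1, Rasa1 and Braf to Nf1, and neighbours overlapped in RPKM only for Hras and Spred1. In Vehicle Spred1 stood above Hras, and no neighbours overlapped, the closest being Hras and Rasa1 (lowest Hras 11.99 RPKM, highest Rasa1 11.5 RPKM). Nras stood at the 96.4th percentile of all genes tested and Nf1 at the 26th.

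Genes with a pattern most like that of Dusp6 included Chtf8 and Stag1. The measure was the root mean square difference of log2 values, each centred on its own mean, over 6 libraries and 7818 candidate genes. It was 0.028 for Chtf8 and 0.033 for Stag1. Over all genes tested 27.5% were called lower, so many share such a step between groups, and shared regulation was not tested. Chtf8 averaged 47.4 ± 1.24 RPKM in OMP and 63.3 ± 3.48 RPKM in Vehicle (SD, n = 3 each).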

How the data were processed

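The authors deposited RPKM values (reads per kilobase of gene length, scaled to library size), 1 column per library. Per the submitters' processing notes, the tools were featureCounts 1.6.3, STAR 2.5.3a, Trimmomatic 0.36 and FastQC 0.11.5, on mm10 (GRCm38). Neither annotation release nor strand setting is stated there. Poly(A) RNA was made into TruSeq libraries, per the labels' protocols. Exons of Braf and Rasa1 share 1.05% and 0.164% of their bases with genes on the opposite strand, and those of the other 6 genes share none.

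Genes that reached 1 RPKM in 3 or more of 6 libraries were tested on log2(RPKM + 0.5) with limma 3.58.1 in R 4.3.3 (prior variance following the mean, two-sided, Benjamini-Hochberg over all 11020 genes tested, threshold 0.05). Fold changes are on that scale and understate those of low genes. Ratios and shares used exact permutation tests over libraries. Whole reads were recovered from the RPKM steps for 19970 of 19970 genes above 0, within a relative tolerance of 1e-06; the lengths equalled a GENCODE M21 transcript for 94.6%. These reads carry no molecular identifiers, so they need not be independent molecules. The fit was tested on simulated data in which few genes changed. That test does not bear on scaling where many genes change. Libraries of a group differed by more than sampling noise (chi-square per degree of freedom 1.18 to 1.57).

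The 8 genes and all lists were chosen with earlier results of these data known. Named genes were the 8, 18 pathway genes fixed by name, the 3 with the smallest p-value in each list, called genes of lists with 4 or fewer, and the 3 most like the gene with the largest change; not all are printed, and results for some of them are not reported here. Promoter sequences are from RefSeq; coding bases were compared in GENCODE M21. Alternatives were pseudocounts, filters, scalings, a robust prior, voom, a replicate block and leaving out each library.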

Additional observations from a re-analysis of the deposited data

How the results depend on the processing

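Of the 8 genes, 2 were called for RPKM as deposited, 4 with TPM rescaling (0 higher, 4 lower), 4 with the replicate block (2 higher) and 5 with voom on recovered reads (2 higher). With median-of-ratios scaling and with quantile normalization 1 gene was called higher in each. With 1 library left out at a time, 2 to 3 were called, 0 to 1 higher and 2 to 2 lower. The genes that gained a call were Nras, Hras, Braf and Spred2, and the cause was not tested. Same-numbered libraries of the groups showed no general likeness over all genes tested. The correlations between deviations from group means were -0.0024, 0.016 and 0.0069 for the 3 numbers. Those values do not exclude pairing for single genes. From replicate 1 to replicate 3, Nras increased and Hras decreased in both groups, and the reason was not tested. With the block 4445 genes were called instead of 4735, and Nras (adjusted p = 0.0448) and Hras (0.0352) passed in limma. Over all genes, leaving out a library gave 3968 to 4241 calls and voom 5336. Of 128 alternative values for the 8 genes, 117 stayed on their side of the threshold and 11 gained a call; 3 uncalled ones changed sign. For the other named genes 671 of 699 values stayed on their side, 24 lost a call and 4 gained one; 13 uncalled ones changed sign. The OMP minus Vehicle difference in the log2 ratio of Nras to Hras ran from -0.28 to 0.02 when a library was left out, so it has no stable sign. Low read numbers limit Rras, at 19 reads in OMP and 43 in Vehicle.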

Other observations

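Among genes that lipidate Ras or move it between membranes, Pde6d, Abhd17a, Abhd17b and Lypla1 fell. Of 11 tested genes, 0 rose and 4 fell in limma with a list median of -0.14, or 36.4% called beside 43.0% over all genes tested (27.5% lower), and 0 to 0 rose when each library was left out. Pde6d, a chaperone for prenylated Ras, had 49.9, 51.5 and 58.7 RPKM in OMP, against 100.4, 97.4 and 95.7 RPKM in Vehicle, and was 1.83-fold lower (limma adjusted p = 2.23e-05). Abhd17a and Abhd17b, enzymes that remove palmitate from N-Ras, were 1.69-fold and 1.44-fold lower. Lypla1, another depalmitoylase, was 1.30-fold lower (limma adjusted p = 0.0187), a call lost with no filter (0.0536), with median-of-ratios scaling (0.0589) and without Vehicle replicate 1 (0.0609).

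Of 13 tested PI3K-AKT genes 1 rose and 2 fell, or 23.1% called beside 43.0% over all genes tested, with a median of 0.02; no difference from other genes was tested for any of these lists. The catalytic subunit genes Pik3cd and Pik3cg were 1.29-fold and 1.31-fold lower, Pik3cg at 29.3 ± 1.81 RPKM in OMP and 38.5 ± 0.205 RPKM in Vehicle (SD, n = 3 each). Pik3r5, the regulatory partner of Pik3cg, rose 1.80-fold to 3.79 ± 0.351 RPKM in OMP, against 1.90 ± 0.400 RPKM in Vehicle (SD, n = 3 each; limma adjusted p = 0.00539). With median-of-ratios scaling and with quantile normalization 4 genes of this list rose. Of 8 tested genes of the Ral branch 1 rose and 2 fell, or 37.5% called, with a median of -0.04. Ralgapa1, a subunit of a Ral GTPase-activating complex, was 1.30-fold lower, while Ralgapb, another subunit, rose 1.16-fold (limma adjusted p = 0.033), a call lost with TPM rescaling (0.153), with the replicate block (0.0664) and in 5 of the 6 fits that left out a library.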
